A study of Mus musculus with 24 samples.

Results

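Synaptic vesicle and synuclein genes were followed through H3K27Ac, the acetylation of histone H3 at lysine 27 that marks active promoters and enhancers, in mouse brain, heart, kidney and liver. The set holds 9 genes taken by symbol from the 27179 genes of the deposited table. They are Snap25, Stx1a and Vamp2 of the fusion machinery, the calcium sensor Syt1, the vesicle membrane protein gene Syp, the synapsins Syn1 and Syn2, and the synucleins Sncb and Sncg. All 9 were found, and their counts lay between 20 and 654 in every library, so none was lost to a low value.

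Neurons store transmitter in synaptic vesicles that fuse with the membrane when calcium enters the terminal. The SNARE proteins, on the vesicle (Vamp2) and on the target membrane (Snap25 and Stx1a), zip together to drive fusion, and synaptotagmin (Syt1) couples this step to calcium. Synapsins tether vesicles in a reserve, synaptophysin (Syp) is an abundant vesicle membrane protein, and synucleins are small vesicle-associated proteins of nerve terminals. Chromatin immunoprecipitation with an H3K27Ac antibody and sequencing report on the regulatory state of such genes and not on their RNA.

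The labels list 24 samples, 16 of H3K27Ac and 8 inputs. FFPE organs were embedded in paraffin after fixation with 10% formalin, and Frozen organs were flash frozen. Cores of Frozen organs received 1% formaldehyde for 30 min, while FFPE chromatin was released by 20 min at 95 °C. The groups used here were brain, heart, kidney and liver FFPE and brain, heart, kidney and liver Frozen, each with 1 library in the table although the labels give 2 samples each. The sources used here do not give the strain, age, sex or animal behind each library. The labels also name a pair of ChIP runs and alternative library kits that cannot be matched to the libraries. FFPE and Frozen tissue may thus differ in animal, run or kit as well as in preservation, and these cannot be told apart.

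Total counts ran from 4404789 to 6164562 per library. Values are log2 CPM, that is log2 counts per gene scaled to an effective library size (CPM, the usual scaling of counts to a fixed depth). They depend on how much of a gene was counted, so each gene was compared between libraries and levels were not compared between genes. The brain label was checked on neuron and glia markers. Neuron markers were higher in brain for 13 of 15 genes, with medians of 6.09 in brain FFPE and 5.89 in brain Frozen, against 3.92 to 4.82 in the other 6 libraries. Glia markers were higher in brain for 9 of 10 genes, where 8.73% of all genes were higher. No neuron or glia marker was at 0 in any library of heart, kidney or liver. Across the 8 libraries only 360 to 608 of the 27179 genes were at 0 in a library. Counts above 0 thus do not show neurons or glia in these organs. In whole tissue, fewer cells that carry the mark and less of the mark per cell cannot be told apart.

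Brain was set against the mean of heart, kidney and liver over both preservations, with organ and preservation as terms. Of the 9 members, 5 were higher in brain, Sncb, Snap25, Syt1, Syn1 and Syn2, and none was lower (limma, Benjamini-Hochberg adjusted p under 0.05 over all 26944 genes tested). Across all genes 22.4% were called by the same rule, 8.73% higher and 13.6% lower. The median difference was 1.24 (log2) over the members and 0.037 over all genes. The other 4 members, Stx1a, Syp, Vamp2 and Sncg, had differences on both sides of 0. The libraries of brain both lay above the other 6 for 4 members, Sncb, Snap25, Syt1 and Syn1, an order that 13.1% of all genes showed. The genes below are given by their place in the vesicle cycle.

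**Figure D1:**
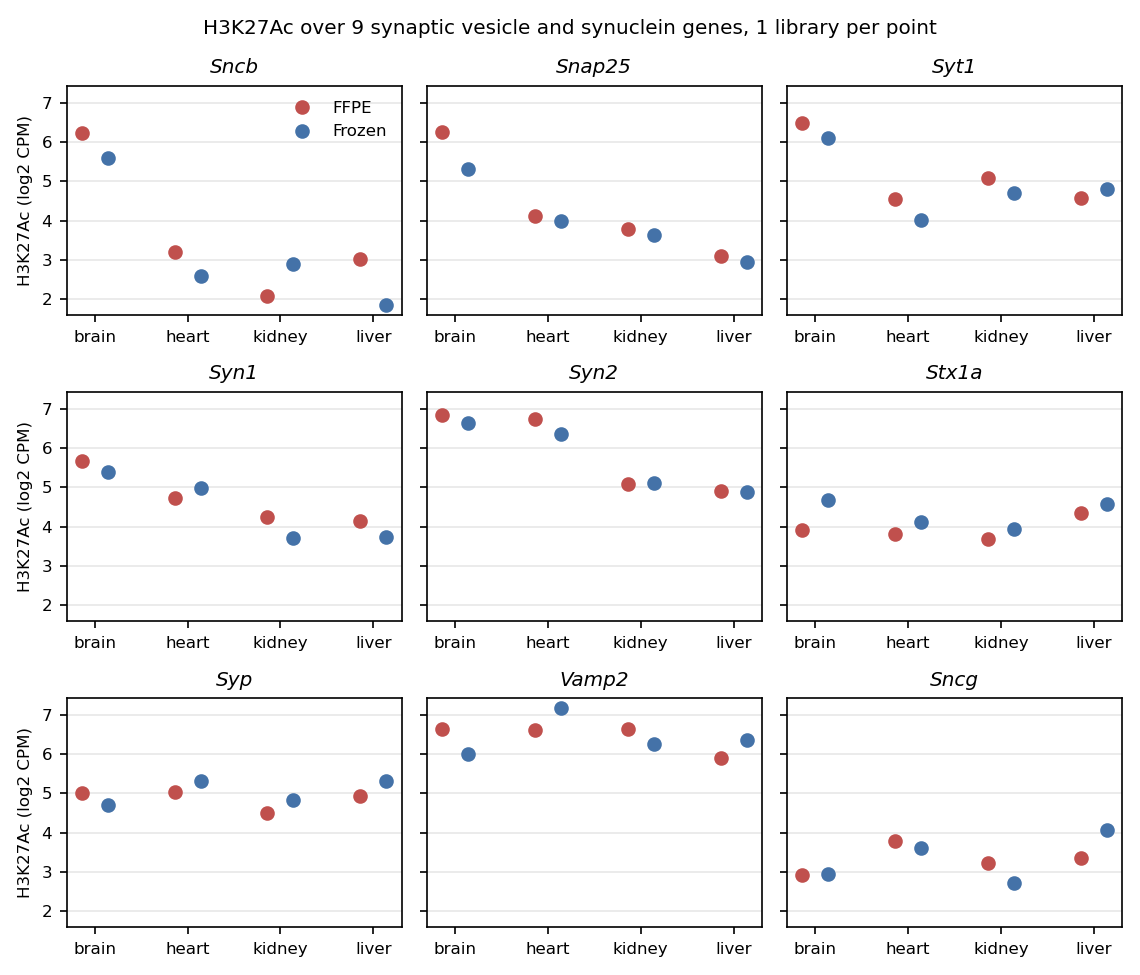
H3K27Ac in log2 CPM (vertical axis) over each of the 9 genes, by organ (horizontal axis). Each point is 1 library, FFPE in red to the left of Frozen in blue. The brain points of Sncb, Snap25, Syt1 and Syn1 lie above all 6 others, Syn2 overlaps between brain and heart, and Stx1a, Syp, Vamp2 and Sncg overlap between organs.

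Among the fusion proteins, Snap25 encodes a SNARE of the plasma membrane and lies at chr2:136713439-136782428 (GRCm38, as all positions here). It stood at 6.26 log2 CPM in brain FFPE and 5.32 in brain Frozen. Heart had 4.13 and 3.99 in FFPE and Frozen, kidney 3.80 and 3.64, and liver 3.11 and 2.94. Both brain libraries were thus above all others, and heart, kidney and liver followed in that order with no overlap between neighbours. Brain was higher by 2.18 ± 0.27 (log2, SE), a 4.55-fold difference with a 95% interval of 3.09 to 6.69 and limma adjusted p = 3.78e-07.

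Stx1a, which encodes the syntaxin partner of Snap25 and is annotated in the table as the brain syntaxin, did not follow it. At chr5:135023482-135051100, it had 3.91 log2 CPM in brain FFPE and 4.69 in brain Frozen. The other organs had 3.81 and 4.12 in heart FFPE and Frozen, 3.70 and 3.94 in kidney, and 4.34 and 4.57 in liver. Brain Frozen was the highest library and brain FFPE lay below both liver libraries. The brain difference was 0.22 ± 0.27 (log2, SE), with a 95% interval of -0.33 to 0.77 and limma adjusted p = 0.599, so a difference as large as that of Snap25 lies outside the interval.

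Vamp2, the SNARE of the vesicle, is a short gene of 3.85 kb at chr11:69088528-69092381. It stood at 6.64 log2 CPM in brain FFPE and 6.0 in brain Frozen, against a lowest value of 5.90, a median of 6.49 and a highest value of 7.17 in the other 6 libraries. The highest was heart Frozen and the lowest liver FFPE, and the brain libraries lay within that range. The difference was -0.17 ± 0.22 (log2, SE), with a 95% interval of -0.63 to 0.29 and limma adjusted p = 0.628. With all libraries brought to the same distribution it was 0.085, so no direction is given.

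Syt1, the calcium sensor, spans 513.3 kb at chr10:108497650-109010980. It had 6.49 log2 CPM in brain FFPE and 6.09 in brain Frozen, against 4.56 and 4.01 in heart FFPE and Frozen, 5.09 and 4.72 in kidney, and 4.58 and 4.82 in liver. Kidney and liver overlapped, and both brain libraries were above all others. Brain was higher by 1.66 ± 0.23 (log2, SE), or 3.16-fold with a 95% interval of 2.29 to 4.37 (limma adjusted p = 1.72e-06).

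Syp, which encodes synaptophysin and is widely used as a stain for synapses, lies at chrX:7638580-7653256. Its H3K27Ac was 5.02 log2 CPM in brain FFPE and 4.71 in brain Frozen, against a lowest value of 4.52, a median of 4.99 and a highest value of 5.33 in the other 6 libraries. The highest library was liver Frozen, followed by heart Frozen at 5.31. The brain difference was -0.13 ± 0.23 (log2, SE), with a 95% interval of -0.60 to 0.34 and limma adjusted p = 0.725. Its sign turned to 0.18 without brain Frozen.

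The synapsins coat vesicles and hold them in reserve. Syn1, at chrX:20860511-20920918, had 5.69 log2 CPM in brain FFPE and 5.39 in brain Frozen. Heart had 4.73 and 4.99 in FFPE and Frozen, kidney 4.24 and 3.72, and liver 4.16 and 3.74. Brain was above all others, heart came next, and kidney and liver overlapped. The difference of brain from the other organs was 1.27 ± 0.25 (log2, SE), 2.42-fold with a 95% interval of 1.70 to 3.43 (limma adjusted p = 0.000231).

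Syn2, at chr6:115134902-115282626, had 6.85 log2 CPM in brain FFPE and 6.65 in brain Frozen, and 6.73 and 6.35 in heart FFPE and Frozen. Kidney stood at 5.09 and 5.11 and liver at 4.90 and 4.89. Brain and heart overlapped, and both lay more than 1 log2 unit above kidney and liver. Brain was higher than the mean of the other organs by 1.24 ± 0.21 (log2, SE), with limma adjusted p = 2.91e-05. Against heart alone the difference was 0.21 ± 0.25, with a 95% interval of -0.31 to 0.72 and limma adjusted p = 0.597. It was 0.048 without heart Frozen and 0.36 without heart FFPE, and 0.59 with adjusted p = 0.0623 after quantile normalization.

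The synucleins showed the highest and the lowest brain difference of the 9 genes. Sncb, which encodes beta-synuclein, a protein of presynaptic terminals, lies at chr13:54758860-54766622. It stood at 6.24 log2 CPM in brain FFPE and 5.59 in brain Frozen. The other libraries had 3.20 and 2.59 in heart FFPE and Frozen, 2.10 and 2.91 in kidney, and 3.04 and 1.86 in liver. The 3 other organs overlapped, with 20 to 42 counts, and brain had 362 and 277 counts in FFPE and Frozen. Brain was higher by 3.30 ± 0.35 (log2, SE), or 9.83-fold with a 95% interval of 6.01 to 16.1 (limma adjusted p = 1.96e-08).

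Sncg, which encodes gamma-synuclein, known from peripheral neurons and also from adipose tissue, lies at chr14:34370274-34374669. It had 2.92 log2 CPM in brain FFPE and 2.95 in brain Frozen, against 3.79 and 3.61 in heart FFPE and Frozen, 3.23 and 2.73 in kidney, and 3.35 and 4.06 in liver. Only kidney Frozen lay below the brain libraries among the other 6. The brain difference was -0.53 ± 0.34 (log2, SE), with a 95% interval of -1.21 to 0.16 and limma adjusted p = 0.28. Adipocyte markers were lower in brain for 3 of 6 genes and higher for none, where 13.6% of all genes were lower. Their summed level was 83.6 CPM in brain FFPE and 90.9 in brain Frozen, against 141 to 572 in the other 6 libraries. Much of that sum is Pck1, an enzyme gene of glucose synthesis that liver and kidney also use. Without it, a choice made after the values were seen, the sum was 70.2 CPM in brain FFPE and 70.6 in brain Frozen. It was 122 and 127 in heart FFPE and Frozen, 74.2 and 79.6 in kidney, and 120 and 121 in liver. A single gene stood out in heart and another in liver. Fabp4 had 5.76 and 5.96 log2 CPM in heart FFPE and Frozen, against 2.57 and 2.40 in brain. Cidec had 5.68 and 6.13 in liver FFPE and Frozen, against 2.84 and 3.53 in brain. Adipoq and Lep, which encode adipocyte hormones, had positive brain differences that were not called, 0.20 ± 0.35 and 0.74 ± 0.29 (log2, SE). None of the 6 markers was at 0 in any library, where only 360 to 608 of the 27179 genes were at 0 in a library. The part of these markers in the values of Sncg was not tested.

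The brain difference was then read against each organ alone, which asks whether a single organ sets it. Against heart, 3 of the 9 members were higher, Sncb by 3.02 ± 0.43 (log2, SE), Syt1 by 2.01 ± 0.28 and Snap25 by 1.73 ± 0.34, where 21.1% of all genes were called, 8.42% higher. Syn1 was 0.68 ± 0.30 above heart with limma adjusted p = 0.111, and 0.87 with adjusted p = 0.0227 after quantile normalization. Against kidney and against liver, the same 5 members were called as against all organs. Against kidney 10.9% of all genes were called, 4.70% higher, and against liver 26.3%, 11.3% higher. With a prior variance that does not follow the mean, limma adjusted p against kidney was 0.0577 for Syn1 and 0.072 for Syt1, which ends both calls. Snap25 differed by 2.07 ± 0.34 from kidney and 2.76 ± 0.34 from liver, and Syn2 by 1.65 ± 0.25 and 1.85 ± 0.25. No member was called lower in brain against any organ, where 12.7% of genes were lower against heart, 6.23% against kidney and 15.0% against liver. Vamp2 came nearest against heart, at -0.57 ± 0.28 with limma adjusted p = 0.14, and was called without brain FFPE, at -0.99 with adjusted p = 0.0184. These comparisons share the brain libraries.

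**Figure D2:**
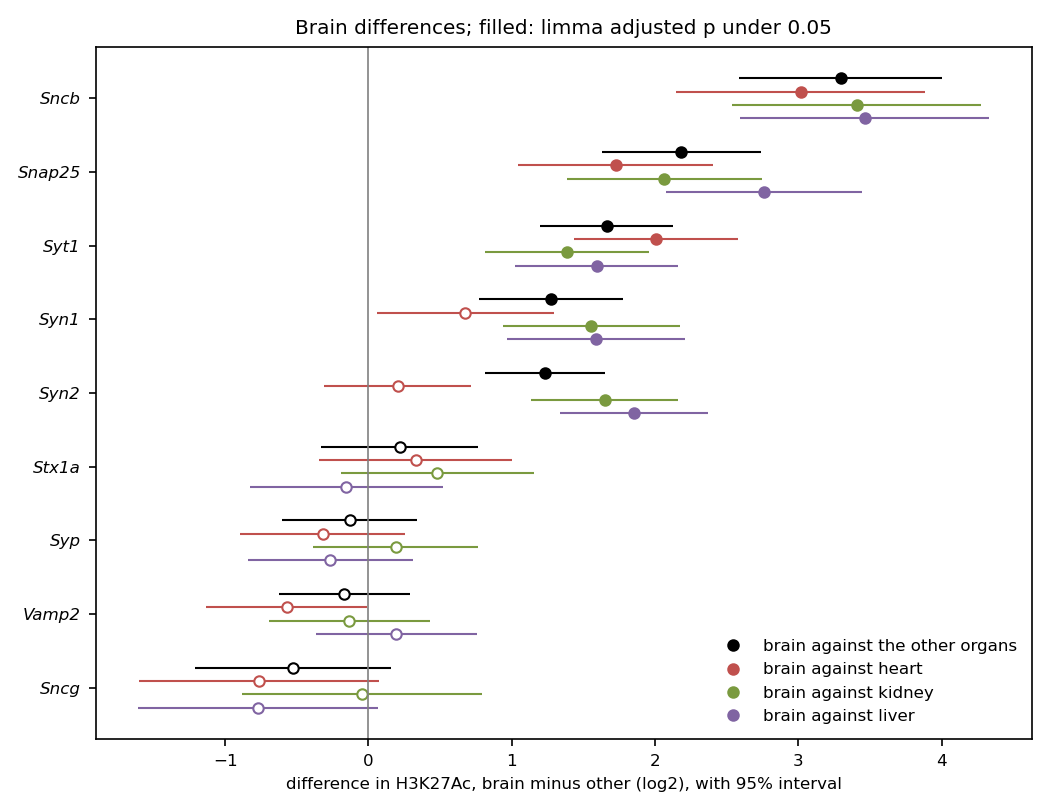
Difference of brain from the mean of the other organs and from each organ (log2, horizontal axis) for the 9 genes (vertical axis), with 95% intervals from limma. Filled points had an adjusted p under 0.05. Sncb, Snap25 and Syt1 are filled in every comparison, Syn1 and Syn2 in all but that with heart, and no other gene is filled in any.

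Promoter windows were read from RefSeq for 7 of the 9 genes, 250 bases before to 50 bases after a start (build GRCm38.p6), each in the direction of its gene. They are shown for Sncb and Syn1, which were higher in brain, and for Syp and Sncg, which were not. Capitals mark matches, on either strand, to TTCAGCACC, the left part of the RE1 element, to TGACGTCA, the cyclic AMP response element (CRE), to TGACGCA, a variant of it, and to GGGCGG, the GC box.
Sncb: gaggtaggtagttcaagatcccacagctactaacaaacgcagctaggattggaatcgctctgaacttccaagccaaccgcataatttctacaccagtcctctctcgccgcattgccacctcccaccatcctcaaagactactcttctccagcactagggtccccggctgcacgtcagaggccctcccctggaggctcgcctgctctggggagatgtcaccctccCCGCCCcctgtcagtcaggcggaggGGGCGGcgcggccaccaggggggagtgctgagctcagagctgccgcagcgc
Syn1: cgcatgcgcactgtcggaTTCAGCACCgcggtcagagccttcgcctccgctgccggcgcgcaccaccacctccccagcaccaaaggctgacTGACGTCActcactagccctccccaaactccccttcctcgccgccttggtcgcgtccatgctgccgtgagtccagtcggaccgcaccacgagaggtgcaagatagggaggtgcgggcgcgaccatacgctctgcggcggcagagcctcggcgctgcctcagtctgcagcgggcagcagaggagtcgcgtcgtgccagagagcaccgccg
Syp: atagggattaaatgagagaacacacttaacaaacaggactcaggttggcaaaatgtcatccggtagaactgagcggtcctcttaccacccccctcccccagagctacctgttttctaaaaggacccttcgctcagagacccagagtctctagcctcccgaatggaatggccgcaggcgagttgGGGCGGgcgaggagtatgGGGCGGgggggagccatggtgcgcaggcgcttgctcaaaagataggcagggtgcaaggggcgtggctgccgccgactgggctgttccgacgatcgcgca
Sncg: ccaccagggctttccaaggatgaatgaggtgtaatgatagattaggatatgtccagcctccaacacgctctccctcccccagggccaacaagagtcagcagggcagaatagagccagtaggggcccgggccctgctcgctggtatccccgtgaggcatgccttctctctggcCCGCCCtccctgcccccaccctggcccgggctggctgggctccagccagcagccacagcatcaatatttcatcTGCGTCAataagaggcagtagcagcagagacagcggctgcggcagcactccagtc
The windows lie at chr13:54766546-54766845 (minus strand), chrX:20920869-20921168 (minus), chrX:7638330-7638629 (plus) and chr14:34374620-34374919 (minus).

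RE1 is the binding element of REST, a repressor known to keep neuronal genes silent outside neurons. The window of Syn1 held TTCAGCACC with its first base at position -232 from the start, and TGACGTCA at -159. These letters occurred in 0.371% and 1.79% of the 32851 windows of all genes. The left part of RE1 was in 1 of 9 member windows. The right part of RE1 was also searched for and was in 0 of 9, against 0.137% of all windows. Only exact letters were searched for, so a right part with any other letter would be missed. In Syn1 the letters gcggtcagagcc follow TTCAGCACC and hold no exact match. Whether the window of Syn1 holds a full RE1 element thus cannot be decided by this search. The GC box was in 6 of 9 windows, among them those of Sncb, Syp and Sncg, against 35.7% of all windows, and overlapped no other motif. The window of Sncg held TGACGCA on the opposite strand at -5, as did 2.12% of all windows. TATAAA was in no member window and in 13.6% of all. The window of Syn1 had 33 CpG dinucleotides and 68.3% G and C, and that of Sncb 15 and 62.0%. Among genes not called, Stx1a had 19 and 66.3%, Syp 18 and 59.0%, and Sncg 9 and 61.3%. Syn2 and Syt1, called higher, have 2 windows each. Those of Syn2 had 21 and 62.3%, and 5 and 51.0%. Those of Syt1 had 8 and 56.7%, and 6 and 44.0%. The median over all windows was 7 and 52.7%. The table does not say which reads fell on promoters, and these matches are not shown to be sites.

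The brain difference was also described within each preservation, where a group is a single library and there is no test. Sncb exceeded the other organs by 3.46 (log2) in FFPE and 3.13 in Frozen. In counts scaled to library size, brain was 10.9-fold above the other organs pooled in FFPE, with an exact 95% interval of 8.67 to 13.7, and 8.56-fold in Frozen, with 6.71 to 11.0. These intervals cover counting error only. Snap25 differed by 2.57 in FFPE and 1.79 in Frozen, Syt1 by 1.74 and 1.58, Syn1 by 1.31 and 1.24, and Syn2 by 1.27 and 1.20. All 5 were thus above in both preservations. They were called on these same libraries, so this adds no support to the calls.

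Of the 4 remaining genes, 3 had differences of opposite sign in FFPE and Frozen, a share that was not worked out for all genes. Vamp2 in brain was 0.25 (log2) above the other organs in FFPE and -0.59 in Frozen, Syp 0.18 and -0.44, and Stx1a -0.036 and 0.47. Sncg was at -0.53 in FFPE and -0.52 in Frozen. The change of the brain difference between FFPE and Frozen was tested with an added term for brain FFPE, and no member passed (limma adjusted p of 0.923 to 1.00 over all genes). Vamp2, with a change of 0.84 ± 0.41 (log2, SE), was the only member with an unadjusted p under 0.05, as 5.14% of all genes had. By adjusted p, 2 of 26944 genes passed, or 0.00742%. For Snap25 the change was 0.78 with a 95% interval of -0.36 to 1.92.

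FFPE was set against Frozen over the 4 organs. No member was called in either direction (limma), where 3.91% of all genes were. By unadjusted p under 0.05, 0 of 9 members passed, against 16.0% of all genes. The fitted differences ran from -0.39 ± 0.23 (log2, SE) for Stx1a to 0.40 ± 0.30 for Sncb. Leaving out 1 library put Sncb between 0.15 (without either liver library) and 0.81 (without either kidney library), and Snap25, at 0.35 ± 0.24, between 0.16 (without either brain library) and 0.42. Their 95% intervals reached -0.86 for Stx1a and 1.02 for Sncb, so changes within these bounds are not shown to be absent.

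Within an organ the ratios of FFPE to Frozen were as follows, with exact 95% counting intervals. Snap25 was 1.92-fold higher in brain FFPE (1.62 to 2.27), with 367 counts in FFPE and 230 in Frozen. Its ratios in heart, kidney and liver were 1.10, 1.12 and 1.12, with intervals that all include 1. FFPE was above Frozen in all 4 organs for this gene, as for 11.8% of all genes. Stx1a was below in all 4 organs, as were 10.4% of all genes, with a ratio of 0.584 in brain (0.435 to 0.779) and 0.805 to 0.85 in the other organs.

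Vamp2 moved in opposite ways by organ. Its ratio of FFPE to Frozen was 1.55 in brain (1.35 to 1.79) and 1.30 in kidney (1.14 to 1.48), and 0.685 in heart (0.605 to 0.775) and 0.728 in liver (0.624 to 0.847). The ratio of Sncb was 1.57 in brain (1.34 to 1.84), 1.53 in heart (0.913 to 2.60) and 2.29 in liver (1.30 to 4.17), the last on 37 FFPE and 20 Frozen counts. In kidney it was 0.562 (0.319 to 0.963) on 22 FFPE and 42 Frozen counts, so 3 of 4 organs were above 1. Syn2 was 1.15-fold higher in brain FFPE (1.02 to 1.29) and 1.30-fold in heart FFPE (1.13 to 1.5), and its ratios in kidney and liver were 0.99 and 1.01. None of these ratios has a replicate, and they compare libraries.

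**Figure D3:**
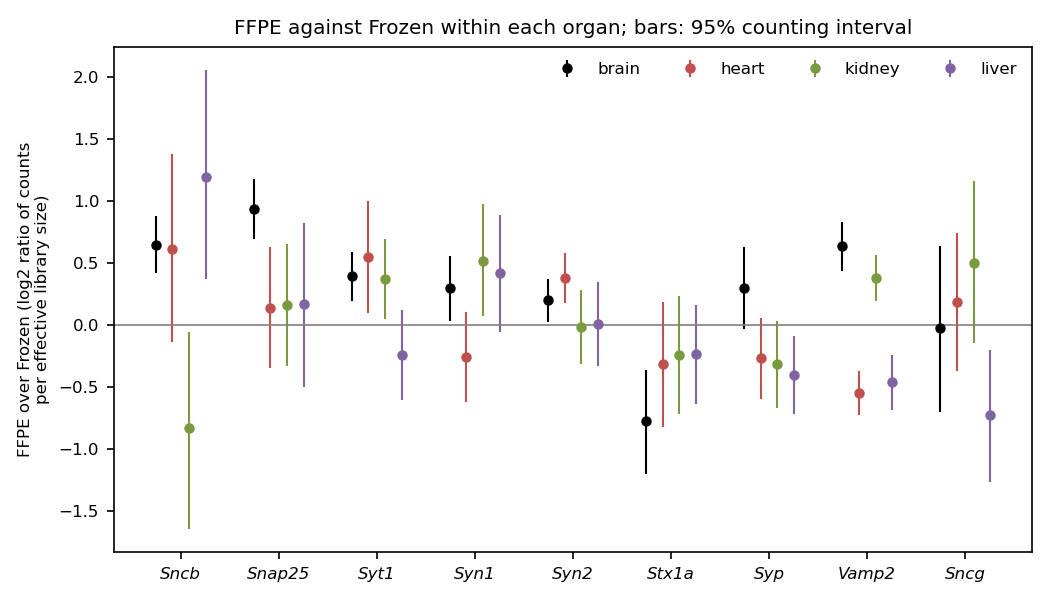
Ratio of FFPE to Frozen counts, scaled to library size (log2, vertical axis), for the 9 genes (horizontal axis) in brain, heart, kidney and liver. Bars are exact 95% counting intervals. Snap25 in brain stands at a 1.92-fold ratio, and the 4 organs of Vamp2 split between ratios of 1.30 to 1.55 and 0.685 to 0.728.

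Other genes of the vesicle cycle were taken from lists and set beside the members for the brain comparison, in which 8.73% of all genes were higher and 13.6% lower. Of 30 genes for SNARE proteins and vesicle fusion, Vamp7 was at 0 counts in all libraries and 29 were tested. Of these 7 were higher and 4 lower in brain, with a median of 0.078 (log2). The higher ones were led by the complexins Cplx1, 2.23 ± 0.34 (log2, SE), and Cplx2, 1.60 ± 0.23, small clamps of the SNARE complex. Those furthest below were Vamp8, -1.77 ± 0.28, and Vamp5, -1.61 ± 0.24, SNARE genes of other membrane traffic. Snap23 and Stx4a, the broadly used relatives of Snap25 and Stx1a, were lower by -0.62 ± 0.23 and -0.69 ± 0.22. The direction thus differed between Snap25 and Snap23, but Snap23 was called narrowly (limma adjusted p = 0.0464). Its relatives Snap29, at -0.31 ± 0.22, and Snap47, at -0.23 ± 0.26, were not called.

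Of 16 other synaptotagmins, 12 were higher in brain and none lower, with a median of 0.90 (log2). Syt4 and Syt13 were the highest, at 2.16 ± 0.24 (log2, SE) and 1.91 ± 0.23. Genes of the active zone, the release site on the plasma membrane, were higher for 11 of 13 members and lower for none, with a median of 1.28. They include Rims3, 2.20 ± 0.40, and Rims2, 1.56 ± 0.22. Of 17 vesicle membrane genes and synapsin relatives, 8 were higher and 1 was lower. Rph3a, an effector of the small GTPase Rab3, was at 2.01 ± 0.25 and Sv2b, a vesicle glycoprotein gene, at 1.40 ± 0.23. Syngr2, the broadly expressed relative of the neuronal synaptogyrins, was at -1.45 ± 0.25. These lists have medians above the 0.037 of all genes, and the SNARE list lies close to it.

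Transporters that load vesicles name the transmitter. Of 8, 3 were higher in brain and 1 was lower. The glutamate transporter genes Slc17a7 and Slc17a6 were at 1.61 ± 0.27 and 1.44 ± 0.26 (log2, SE), and Slc18a1, a monoamine transporter gene of endocrine cells, was at -0.73 ± 0.22. Of 19 genes for vesicle endocytosis, 7 were higher and 3 lower, led by Amph, 1.79 ± 0.27, and Sh3gl2, 1.70 ± 0.26, and by Pacsin2, -1.18 ± 0.20, and Picalm, -0.73 ± 0.21. Housekeeping genes had 2 of 12 lower and none higher. Their median was -0.47, against 0.037 for all genes, and only 1 of the 12 had a positive difference. The lower calls of the SNARE, transporter, endocytosis and housekeeping lists lie near the 13.6% of all genes that were lower. They are not read as traits of these lists. No gene of the 6 vesicle lists was called between FFPE and Frozen, where 3.91% of all genes were. Of 15 neuron markers 1 was called, Elavl4, an RNA-binding protein gene, at 0.91 ± 0.21.

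**Figure D4:**
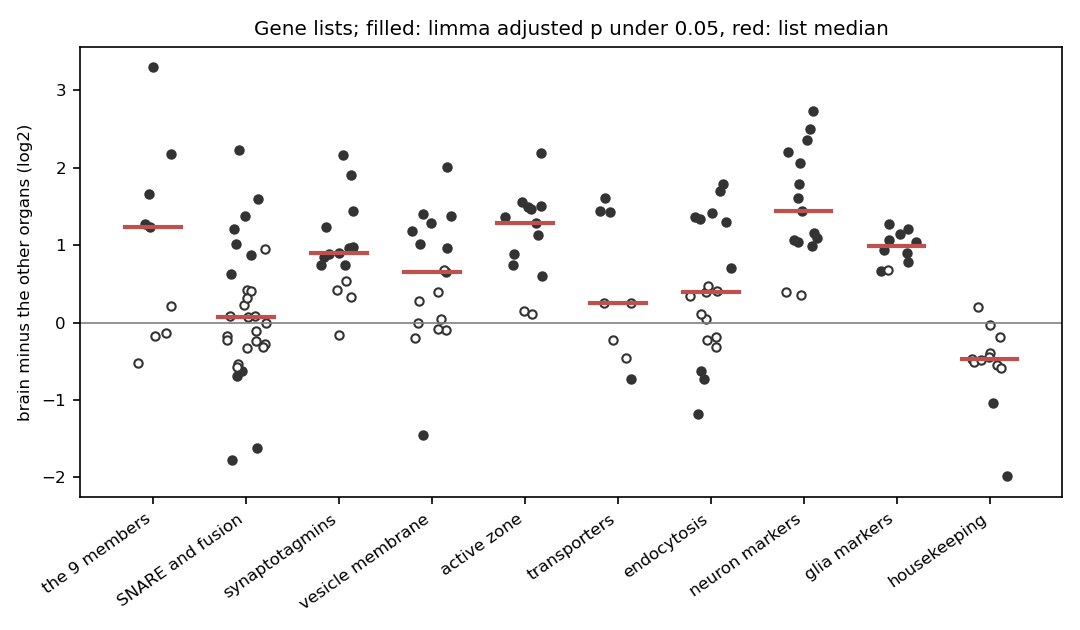
Brain minus the other organs (log2, vertical axis) for every tested gene of each list (horizontal axis). Filled points had a limma adjusted p under 0.05, and the red line is the list median. The members have a median of 1.24, near the active zone list at 1.28 and above the SNARE list at 0.078.

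Several members share their position with other genes. The RefSeq table lists 18 genes that overlap a member or lie within 10 kb of it, of which 12 were in the tested table. The sources used here do not say whether a read in an overlap was counted for a member, for the other gene, for both or for neither. ChIP reads carry no strand of transcription, so overlapping genes cannot be told apart. The pairs described next were chosen after their values were seen.

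Timp4, which encodes a tissue inhibitor of metalloproteinases, lies inside Syn2 at chr6:115244444-115252205. It stood at 5.22 log2 CPM in brain FFPE and 4.97 in brain Frozen, 5.61 and 5.66 in heart FFPE and Frozen, 3.42 and 3.66 in kidney, and 3.77 and 2.48 in liver. Like Syn2, it had its highest 4 values in brain and heart. Gm17733, a noncoding gene that lies 66 bases before Syn2, had 4.59 in brain FFPE and 4.62 in brain Frozen, against 3.37 and 2.74 in heart FFPE and Frozen. Brain differed from heart by 1.55 ± 0.41 (log2, SE) for Gm17733, with limma adjusted p = 0.00578, and by -0.54 ± 0.34 for Timp4, with adjusted p = 0.274. The gene before Syn2 was thus higher in brain than in heart, and the gene inside it was not. The part of Timp4 in the heart value of Syn2 was not tested.

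Timp1, a relative of Timp4, lies inside Syn1 in the same manner, at chrX:20870166-20874737. Its values were 3.39 log2 CPM in brain FFPE and 3.10 in brain Frozen, 2.57 and 2.83 in heart FFPE and Frozen, 1.73 and 1.86 in kidney, and 2.17 and 1.36 in liver. They had the same order of brain, heart and the other organs as Syn1, with a Pearson correlation of 0.959 over 8 libraries. Inside Syt1, Gm5136 was higher in brain by 1.55 ± 0.44 (log2, SE; limma adjusted p = 0.00921).

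Mmrn2, an extracellular matrix gene of endothelial cells, lies 834 bases from Sncg. Mmrn2 had 4.72 log2 CPM in brain FFPE and 4.92 in brain Frozen, against 4.79 to 6.60 in the other 6 libraries, and was lower in brain by -0.96 ± 0.25 (log2, SE; limma adjusted p = 0.00427). Its correlation with Sncg over the 8 libraries was 0.962, and liver Frozen was the highest library for both. Gprin1, a gene of neurite growth that lies 8985 bases from Sncb, was higher in brain by 1.71 ± 0.27 with limma adjusted p = 1.28e-05, and its correlation with Sncb was 0.973. Beside Syp, Cacna1f was higher in brain by 0.90 ± 0.28 and Prickle3 lower by -0.97 ± 0.26. Per1, a clock gene 2726 bases from Vamp2, differed by -0.029 ± 0.21. Correlations here are over libraries that share organs and depth, and are given as descriptions.

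**Figure D5:**
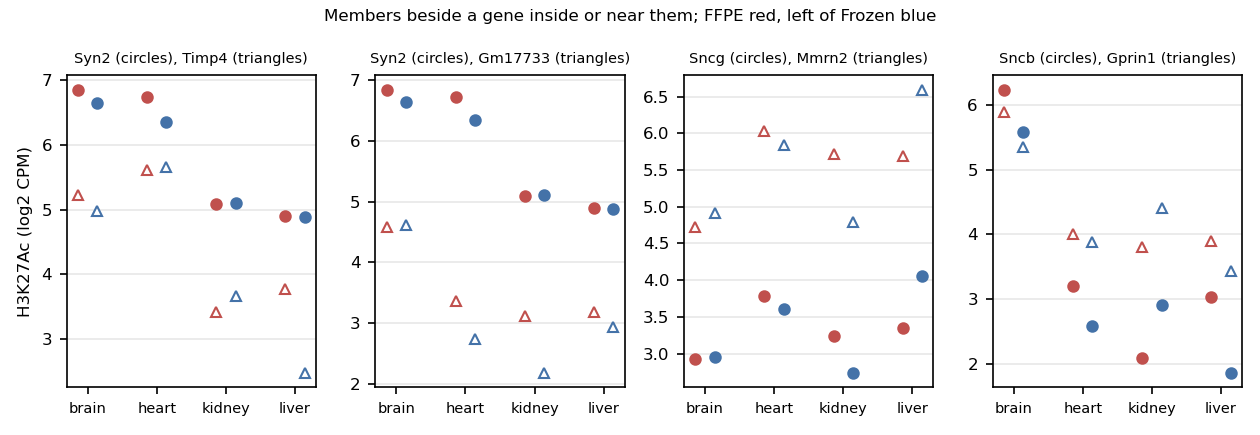
H3K27Ac in log2 CPM (vertical axes, which differ between panels) by organ (horizontal axis) for a member (filled circles) and a gene inside or near it (open triangles). FFPE is red, to the left of Frozen in blue, with 1 library per point. Timp4 shares the high heart values of Syn2 and Gm17733 does not, and Mmrn2 follows Sncg with its highest value in liver Frozen.

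The members also differed in how alike their profiles were. Over the 8 libraries Sncb and Snap25 had a Pearson correlation of 0.926, Syn1 and Syn2 of 0.91, and Sncb and Sncg of -0.58. Among 24872 genes with a mean of at least 1 log2 CPM, those closest to Sncb were Nfasc, Nat8l and Sptbn4, with correlations of 0.991 to 0.997. Closest to Snap25 were Diras2, Rnf112 and Stmn2, at 0.992 to 0.995. For Syn1 they were Hes5, Fbxl5 and Gnao1, at 0.983 to 0.987, for Syn2 Atcay, Fbxl13 and Tuba1a, at 0.974 to 0.985, and for Syt1 Zfp956, Ipcef1 and Csnk1g1, at 0.979 to 0.982. Closest to Syp were Snx14, Pold4 and H4c18, at 0.981 to 0.991, and to Vamp2 Nrde2, Mir5103 and Aldoa, at 0.963 to 0.986. For Stx1a they were Fbxo38, Tdpoz2 and Aldh1b1, at 0.947 to 0.973, and for Sncg Snrnp48, Nkiras1 and Tmed5, at 0.968 to 0.986. These genes are the highest of 24872 ranked over only 8 libraries. High values thus follow from the choice, also for members with no brain difference, and show no link between the genes.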

How the data were processed

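H3K27Ac was measured by ChIP-seq in the organs and preservations described above. The submitters' processing notes name the aligner Bowtie2, the counter featureCounts, limma and build mm10. The sources used here do not give their versions, the counted part of each gene or any pooling of replicates. The authors deposited 8 columns of log2 values, named by organ and preservation and with no replicate number. Read as log2 of (count + 0.5) scaled to counts per fixed depth (CPM) of an effective library size, 100% of values came out whole (tolerance 0.001). That size was 0.749 to 1.22 times the total count. The values are thus log2 CPM. The recovered counts served only for depth and counting intervals. No input column was analysed here.

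The 235 genes at 0 counts in all libraries were removed, and 26944 were tested. Two-sided tests on the deposited log2 values used limma 3.58.1 in R 4.3.3, with organ and preservation as terms and a prior variance that follows the mean. The fit had 3 residual degrees of freedom beside 30.6 of the prior variance, so the p-values rest largely on a prior shared over genes. Without its trend the prior had 3.8, and limma adjusted p of Sncb in brain against the other organs was 0.0175. The fit takes organs as replicates for preservation, and preservations as replicates for organs. Spread between these 8 libraries, which may be technical, is all that the p-values measure. The threshold was a Benjamini-Hochberg adjusted p of 0.05. Ratios of counts have Clopper-Pearson 95% intervals, computed with scipy 1.17.1 in Python 3.11.15.

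Members and lists were chosen with earlier results of these data known. All members were named, and of each list up to 2 genes with the largest difference in each direction. Snap23, Snap29, Snap47, Stx4a, Elavl4, Adipoq, Lep, Cidec and neighbouring genes were named after their values were seen. For each member the 3 genes of highest correlation were named. Lists of peripheral nerve, Schwann cell, cardiomyocyte, nephron and hepatocyte markers were also fixed. In brain, 4 of 10 peripheral nerve and endocrine genes were higher and none lower, and of 4 Schwann cell genes 1 was higher. Of 6 genes each, 1 cardiomyocyte gene was higher and 2 lower, 1 nephron gene was lower, and 3 hepatocyte genes were lower. Across all genes 8.73% were higher and 13.6% lower.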

Additional observations from a re-analysis of the deposited data

How the results depend on the processing

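No paired analysis was possible because the 8 columns carry no replicate number to pair by. FFPE and Frozen were matched only through the organ term of the fit. The higher calls of Sncb, Snap25, Syt1, Syn1 and Syn2 in brain against the other organs held under all 12 alternatives, with adjusted p up to 0.0284. Where a library was left out, its organ kept 1 library, which is assumed to vary like the others. Counts of called genes moved more. Without a trend in the prior variance they were 2421 for brain against the other organs (1267 higher and 1154 lower, against 2353 and 3677), 369 for FFPE against Frozen, 1979, 361 and 3839 for brain against heart, kidney and liver, and 0 for the change of the brain difference with preservation. Quantile normalization gave 4465 against kidney and 6 for that change. Leaving out each library gave 2505 (without brain Frozen) to 7242 for brain against the other organs, 501 to 1969 for FFPE against Frozen, 2077 to 6507 against heart, 857 to 3379 against kidney, 3597 to 7385 against liver, and 0 to 1 for the change. Differences that changed sign were all uncalled, and the cause was not tested. Under quantile normalization Vamp2 was at 0.085 in brain against the other organs, and in the change Syn2 was at -0.21 and Sncg at 0.14. With the same median and spread, Vamp2 was at -0.062 for FFPE against Frozen and Sncg at 0.065 for the change. Leaving out each library gave, for brain against the other organs, Syp -0.44 to 0.18, Stx1a -0.036 to 0.47 and Vamp2 -0.59 to 0.25. For FFPE against Frozen it gave Vamp2 -0.21 to 0.19 and Sncg -0.18 to 0.22. Against kidney it gave Syp -0.12 to 0.51, Vamp2 -0.55 to 0.29 and Sncg -0.39 to 0.30, and against liver Syp -0.58 to 0.048, Stx1a -0.41 to 0.10 and Vamp2 -0.23 to 0.62. For the change it gave Syn1 -0.17 to 0.22, Syt1 -0.068 to 0.32, Sncb -0.24 to 0.76 and Sncg -0.36 to 0.24. Within Frozen, quantile normalization put Syn2 at 1.63, Syt1 at 1.79 and Vamp2 at -0.17. Counts as low as 20 limit Sncb outside brain.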

Other observations

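Among genes that were not members, 4 of the 10 peripheral nerve and endocrine genes were higher in brain, where 8.73% of all genes were. Chgb, which encodes a granin of secretory granules, was at 2.68 ± 0.26 (log2, SE) with limma adjusted p = 4.00e-09, and Chga, another granin gene, at 1.67 ± 0.31 with adjusted p = 0.000125.

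A relative of the synapsin members also holds another gene, a pair found after its values were seen. Syn3, the third synapsin gene, had 6.79 log2 CPM in brain FFPE and 7.01 in brain Frozen, against 8.11 and 8.27 in kidney FFPE and Frozen, its highest libraries. Timp3 lies inside it, at chr10:86300412-86349505, and had 5.98 in brain FFPE and 5.81 in brain Frozen, against 7.40 and 7.32 in kidney and 7.30 and 7.34 in heart. The part of Timp3 in the values of Syn3 was not tested.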
